A study of Mus musculus with 8 samples.

Results

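The 10 genes described here encode the enzymes that build gangliosides from ceramide: Ugcg, B4galt5, B4galt6, St3gal5, St8sia1, B4galnt1, B3galt4, St3gal1, St3gal2 and St8sia5. They were taken by symbol from a deposited table of 49139 transcripts, which gave 23767 genes, and all 10 were found. For each gene, the transcript with the highest average of both group means was used. Testis samples, 4 from wild-type mice and 4 from mice labelled Dio3KO, were sequenced, all of the 129/SVJ background and taken at postnatal day 5. The deiodinase made from Dio3 inactivates thyroid hormone, and the title of the series speaks of genes that this hormone regulates in the newborn testis. How the Dio3 allele was altered, in which cells, and whether animals were pooled is not stated in the labels. The table holds the authors' mean of each group in RPKM (reads per transcript, scaled to its length and to the size of the library), the coefficient of variation (CV, the SD divided by the mean) and an adjusted p, so values of single samples were not used and sequencing depth is unknown. The genes were selected on the group means and adjusted p values of this same comparison, so their differences between the groups are given as a description. The lists of other genes were also chosen with earlier results of these data known, so their counts are a description too. "Rose" and "fell" are used where the authors' deposited table gives an adjusted p below 0.05.

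Gangliosides are glycosphingolipids that carry sialic acid, and they sit in the outer leaflet of the plasma membrane. In the Golgi, glucose and then galactose are added to ceramide, a first sialic acid makes GM3 and a further one makes GD3. N-acetylgalactosamine, added by the B4galnt1 enzyme, then opens the way to the complex gangliosides, which abound in brain. Male mice without B4galnt1 are known to be sterile, with testosterone held back in their Leydig cells.

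The labels name the tissue as testis, while the text on RNA extraction names hypothalami. The 11 measured testis markers had means from 12.1 to 435 RPKM for wild type and from 13.4 to 455 RPKM under the Dio3KO label. The 15 measured hypothalamic and neuronal markers reached at most 1.89 and 1.05 RPKM, and Sim1 was listed at 0 in wild type. Dio3 stood at 0.52 RPKM (CV 0.20) in wild type and at 2.95 RPKM (CV 0.29) in mice labelled Dio3KO (authors' deposited table, adjusted p = 0.0408). The targeted gene was thus higher under the knockout label, which is why that group is called Dio3KO-labelled, and every direction below rests on the label. The median log2 ratio over the 15225 genes of at least 1 RPKM in either group was -0.05, with 0.5 RPKM added to each mean here and in all log2 ratios below.

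Of the 10 ganglioside enzymes, B4galnt1, B4galt6 and St3gal5 rose, St8sia1 fell and 6 did not pass. Among all genes tested, 14.0% rose and 15.9% fell in the authors' deposited table, and nothing is read from the members' counts beside these shares. A moderated test in limma, run on the same means and CVs, called 4 of the enzymes higher and 1 lower, where it called 18.6% of all genes higher and 23.2% lower. A stricter limit of 0.01 was also set on the adjusted p that the authors' deposited table gives. There B4galnt1 and B4galt6 were the 2 higher ones and 0 were lower, beside 4.30% and 4.94% of all genes. B4galnt1 lay close to that limit, since the adjusted p values of its 6 transcripts ran from 0.0079 to 0.0103 in that table. In 9 of the genes a group mean reached 1 RPKM, and St8sia1 reached it in wild type alone. St8sia5 did not reach it in either group. The median log2 ratio was 0.11 over those 9 genes and 0.12 over all 10. Sizes differed widely: the mean of B4galnt1 was 12.1 times as high in the Dio3KO-labelled group, that of B4galt6 was 1.75 times and that of St3gal5 was 1.08 times.

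**Figure D1:**
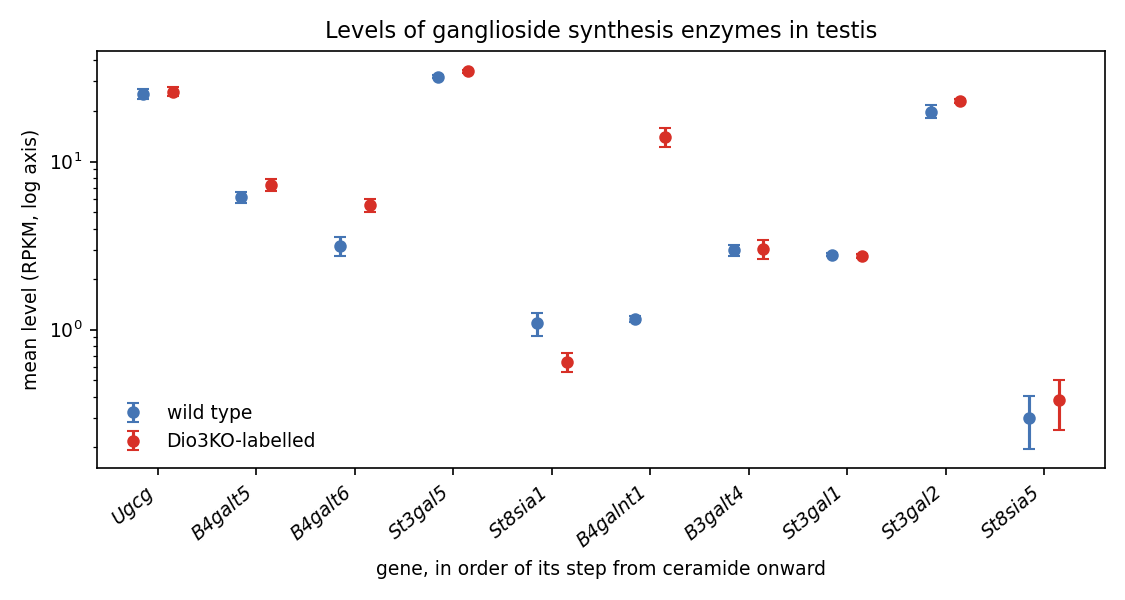
Mean level in RPKM (log axis) of each of the 10 enzyme genes, from the first step at left to the last at right; blue is wild type, red is Dio3KO-labelled, points are the authors' means and bars are the mean times the authors' CV (1 SD, 4 samples per group). B4galnt1 went from 1.16 to 14.0 RPKM, while Ugcg, B3galt4 and St3gal1 had nearly the same mean in both groups.

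The first step, from ceramide to glucosylceramide, is catalysed by the product of Ugcg. Its mean was 25.4 RPKM (CV 0.07) in wild type and 26.1 RPKM (CV 0.06) in Dio3KO-labelled testes (authors' deposited table, adjusted p = 0.547). The log2 ratio was 0.04, with a 95% interval by limma from -0.10 to 0.18. Bars of 1 SD around the group means overlapped. A further transcript of Ugcg had means of 20.5 and 19.99 RPKM, so that the small difference pointed the other way, and it did not pass either.

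Lactosylceramide, the branching point of the glycosphingolipids, is made by the products of B4galt5 and B4galt6, paralogs with overlapping activity. B4galt6 rose from 3.14 (CV 0.13) to 5.50 RPKM (CV 0.09), which made a log2 ratio of 0.72 ± 0.10 (SE, derived from the CVs, as throughout, authors' deposited table, adjusted p = 0.0079). The bars of 1 SD did not overlap. B4galt5 had means of 6.13 RPKM (CV 0.07) and 7.26 RPKM (CV 0.08), and did not pass (authors' deposited table, adjusted p = 0.0626). Its log2 ratio was 0.23, with a 95% interval from 0.07 to 0.39, and the moderated limma test called it higher (adjusted p = 0.0278). Added together, the means of both genes came to 9.27 RPKM without and 12.8 RPKM with the Dio3KO label. B4galt6 made up 33.9% of that sum in wild type and 43.1% in the other group, while B4galt5 remained the higher of the pair in both.

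St3gal5, the GM3 synthase, which adds the first sialic acid, had the highest level of the 10 genes in both groups. It rose from 31.9 (CV 0.02) to 34.5 RPKM (CV 0.02), a difference of 8.21% and a log2 ratio of 0.11 ± 0.02 (SE, authors' deposited table, adjusted p = 0.0175). The rise was small but larger than the narrow spread within either group. Its log2 ratio was 0.16 when centred on the median of all genes and 0.21 when both groups were scaled to the same RPKM sum. That scaling raises the ratios, since the deposited means summed to 1015250 RPKM for wild type and 947625 RPKM under the Dio3KO label. It moved the median of all genes tested from -0.05 to 0.04. The log2 ratios of the 4548 genes past 0.05 in either direction had a median size of 0.39, and 42 of them were no larger in size than that of St3gal5. With the spread pooled across genes by limma the call of St3gal5 was lost (adjusted p = 0.0519). The other transcript of St3gal5 had means of 29.6 and 31.9 RPKM and also rose.

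St8sia1, the GD3 synthase, which adds a further sialic acid to GM3, was the member that fell. Its mean was 1.09 RPKM (CV 0.16) in wild type and 0.64 RPKM (CV 0.13) in Dio3KO-labelled testes (authors' deposited table, adjusted p = 0.0352). The log2 ratio was -0.48 ± 0.10 (SE), and the bars of 1 SD did not overlap. Because the gene passed the limit of 1 RPKM through wild type alone, a fall is the direction that this limit favours. The levels of both enzymes that use GM3 lay close together in wild type, where B4galnt1 was 1.06 times as high as St8sia1. In Dio3KO-labelled testes it was 21.9 times as high.

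Promoter sequences of 5 of the 10 genes (Ugcg, B4galt5, St3gal5, St8sia1 and B3galt4) were in the RefSeq table for GRCm38.p6, the assembly known as mm10. Those of the 2 genes that met the threshold in opposite directions, St3gal5 and St8sia1, are shown as the 250 bases before the annotated start. St3gal5 is read on the plus strand (chr6:72097358-72097607) and St8sia1 on the minus strand (chr6:142964453-142964702). In GENCODE M21 the genes themselves span chr6:72097592-72154571, which takes in the end of the St3gal5 window, and chr6:142821545-142964452. Capitals mark AGGTCA, the half-site that thyroid hormone receptors and other nuclear receptors bind, and GGGCGG, the GC box, on either strand.
St3gal5: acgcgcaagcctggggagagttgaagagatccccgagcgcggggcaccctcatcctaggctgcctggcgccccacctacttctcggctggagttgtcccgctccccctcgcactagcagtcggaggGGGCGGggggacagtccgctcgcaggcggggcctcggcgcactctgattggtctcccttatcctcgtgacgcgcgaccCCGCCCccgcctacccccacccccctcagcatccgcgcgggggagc
St8sia1: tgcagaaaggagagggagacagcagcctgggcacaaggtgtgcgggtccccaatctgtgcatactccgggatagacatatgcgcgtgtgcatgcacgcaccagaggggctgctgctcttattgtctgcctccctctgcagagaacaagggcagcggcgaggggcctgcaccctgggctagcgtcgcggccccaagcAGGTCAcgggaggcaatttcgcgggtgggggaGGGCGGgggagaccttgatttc
AGGTCA was found once, in St8sia1, 49 to 54 bases before the start, and not in the windows of the other 4 genes. It occurred in 14.0% of the 32851 promoter windows of this length in the table, both strands searched. GGGCGG occurred in all 5 windows, from 1 match in St8sia1 and B3galt4 to 7 in B4galt5, and in 32.7% of all windows. No match of one motif overlapped a match of the other in these 5 windows, and TATAAA was in none of them, against 12.4% of all windows. The GC content of the 5 windows ran from 59.2% in B3galt4 to 80.4% in Ugcg, all above the median of 52.4% over all windows. A match shows only that the letters are present.

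B4galnt1 encodes the transferase that turns lactosylceramide, GM3 and GD3 into GA2, GM2 and GD2, the entry to the complex gangliosides. Its mean was 1.16 RPKM (CV 0.04) in wild type and 14.0 RPKM (CV 0.13) in Dio3KO-labelled testes. The groups stood far apart, since the SD was 0.0464 RPKM for wild type and 1.82 RPKM for the other group. The log2 ratio was 3.13 ± 0.09 (SE, authors' deposited table, adjusted p = 0.0098). By that ratio B4galnt1 stood in place 4 from the top among 15225 genes, of which 1.56% were at least 2-fold higher. Its adjusted p in the authors' deposited table did not stand out in the same way. There B4galt6, with a far smaller ratio, had one as low as the lowest of any B4galnt1 transcript (0.0079). The moderated limma test gave adjusted p values of 1.58e-08 for B4galnt1 and 0.000139 for B4galt6.

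All 6 listed transcripts of B4galnt1 rose. Their means ran from 0.78 to 1.17 RPKM for wild type and from 7.93 to 14.0 RPKM under the Dio3KO label, with ratios of 10.2 to 12.5. Adjusted p values of these transcripts ran from 0.0079 to 0.0103 in the authors' deposited table. Transcripts of 1 gene share exons and reads, so they are not separate evidence. In mm10 with GENCODE M21 annotation, B4galnt1 (ENSMUSG00000006731.10) is a plus-strand gene at chr10:127165225-127172330. Its last 938 bases overlap Slc26a10, a gene on the minus strand, and 715 exonic bases are shared. Whether reads were counted by strand is not stated, so reads from those bases cannot be assigned to either gene. Slc26a10 stood at 0.25 RPKM (CV 0.38) and 0.24 RPKM (CV 0.45, authors' deposited table, adjusted p = 0.712).

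**Figure D2:**
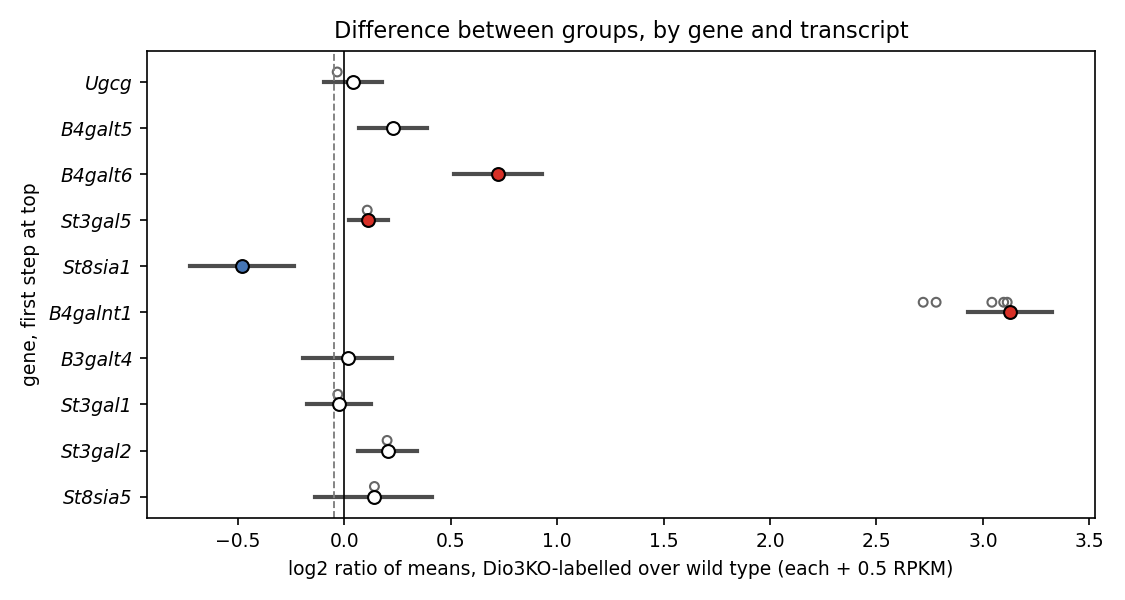
Log2 ratio of the group means (Dio3KO-labelled over wild type, each with 0.5 RPKM added) for each gene; filled circles rose (red) or fell (blue), white circles did not pass, small open circles are further transcripts of the gene, bars are 95% intervals by limma and the dashed line is the median of all genes tested. The 6 transcripts of B4galnt1 lie between 2.72 and 3.13, and the other 9 genes between -0.48 and 0.72.

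In a whole testis, more cells that express a gene and more of its RNA per cell cannot be told apart. Marker lists of several cell types moved in the same comparison. Their counts stand beside 14.0% of all genes tested that rose and 15.9% that fell, and by limma 18.6% higher and 23.2% lower. Of 9 macrophage markers 7 rose and 0 fell in the authors' deposited table, and their summed mean went from 85.9 to 172 RPKM, 2.00 times as high. The moderated limma test called all 9 higher and 0 lower, and 0 were lower at an unadjusted p below 0.05. Of 6 endothelial markers 4 rose (53.7 and 67.6 RPKM in sum), and of 7 Leydig cell markers 2 rose and 1 fell (472 and 643 RPKM in sum). Limma called 5 endothelial markers higher and 0 lower, and 3 Leydig cell markers higher and 1 lower. In the Leydig cell sum, Cyp11a1 (64.2 and 156 RPKM) and Hsd3b1 (158 and 245 RPKM) rose in the authors' deposited table. Nr5a1 fell there (82.1 and 68.6 RPKM), and the other 4 Leydig cell markers did not pass. All 8 markers of dividing cells fell, and their sum went from 386 to 236 RPKM. Of 9 Sertoli cell markers 3 rose and 4 fell (1058 and 1110.4 RPKM in sum), and of 7 peritubular and stromal markers 3 rose and 1 fell (1103 and 1331 RPKM in sum). The Sertoli cell sum held large opposite differences, since Cldn11 rose from 83.6 to 300 RPKM and Amh fell from 284 to 127 RPKM. In the peritubular and stromal sum, Dcn rose from 357 to 600 RPKM while Acta2 fell from 401 to 346 RPKM. Of 7 tested germ cell markers 0 rose and 0 fell in the authors' deposited table, while limma called 1 higher and 2 lower, the same counts as at an unadjusted p below 0.05. The germ cell sum was 234 RPKM without and 213 RPKM with the Dio3KO label. None of these markers was at 0 in either group. The part of cell numbers in the results for the enzymes was not tested.

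The product of B3galt4 adds galactose to make GM1 and GD1b. Its means were 2.97 RPKM (CV 0.08) and 3.01 RPKM (CV 0.13) (authors' deposited table, adjusted p = 0.735). The bars of 1 SD overlapped, and the 95% interval of the log2 ratio ran from -0.19 to 0.23. The level of this next enzyme of the route was above that of B4galnt1 in wild type, where B4galnt1 had 0.391 times its level. In the Dio3KO-labelled group B4galnt1 had 4.65 times the level of B3galt4.

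St3gal1 and St3gal2 encode sialyltransferases that act on the terminal galactose, on glycoproteins as well as on GM1 and GD1b, where they give GD1a and GT1b. St3gal2 was the higher of the pair, 7.09 times St3gal1 in wild type and 8.37 times in Dio3KO-labelled testes. Its means were 19.9 RPKM (CV 0.09) and 22.9 RPKM (CV 0.03) (authors' deposited table, adjusted p = 0.0822). The 95% interval of its log2 ratio ran from 0.06 to 0.34, and the moderated limma test called it higher (adjusted p = 0.0239). St3gal1 had means of 2.80 RPKM (CV 0.02) and 2.74 RPKM (CV 0.03) (authors' deposited table, adjusted p = 0.393). Its interval ran from -0.18 to 0.12, and the sign of its small ratio turned from -0.03 to 0.02 when ratios were centred on the median of all genes and to 0.06 when both groups were scaled to the same RPKM sum.

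St8sia5, which places a further sialic acid on complex gangliosides and is best known from brain, was the lowest of the 10. Its means were 0.30 RPKM (CV 0.35) and 0.38 RPKM (CV 0.33) (authors' deposited table, adjusted p = 0.417). The bars of 1 SD overlapped and the 95% interval of the log2 ratio ran from -0.14 to 0.41. Its CVs were the highest among the 10 genes, while the other 9 had CVs below 0.2 in both groups. Over all genes tested, the median CV was 0.08 in wild type and 0.06 in the Dio3KO-labelled group.

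RPKM is scaled to length, so the levels can be ordered across genes. In wild type St3gal5, Ugcg and St3gal2 led with 31.9, 25.4 and 19.9 RPKM, followed by B4galt5 at 6.13 RPKM. B4galt6, B3galt4 and St3gal1 came next, at 3.14, 2.97 and 2.80 RPKM, and neighbours among these 3 overlapped within 1 SD. B4galnt1 and St8sia1 also overlapped, with St8sia5 below them. In Dio3KO-labelled testes the first 3 kept their order and B4galnt1 moved from place 8 to place 4, apart from St3gal2 above it and B4galt5 below it by more than 1 SD on each side. B4galt6 no longer overlapped with B3galt4, whereas B3galt4 and St3gal1 still did. St3gal5 was 27.5 times as high as B4galnt1 in wild type and 2.47 times in the Dio3KO-labelled group. These ratios of means have no error, because values of single samples were not used.

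**Figure D3:**
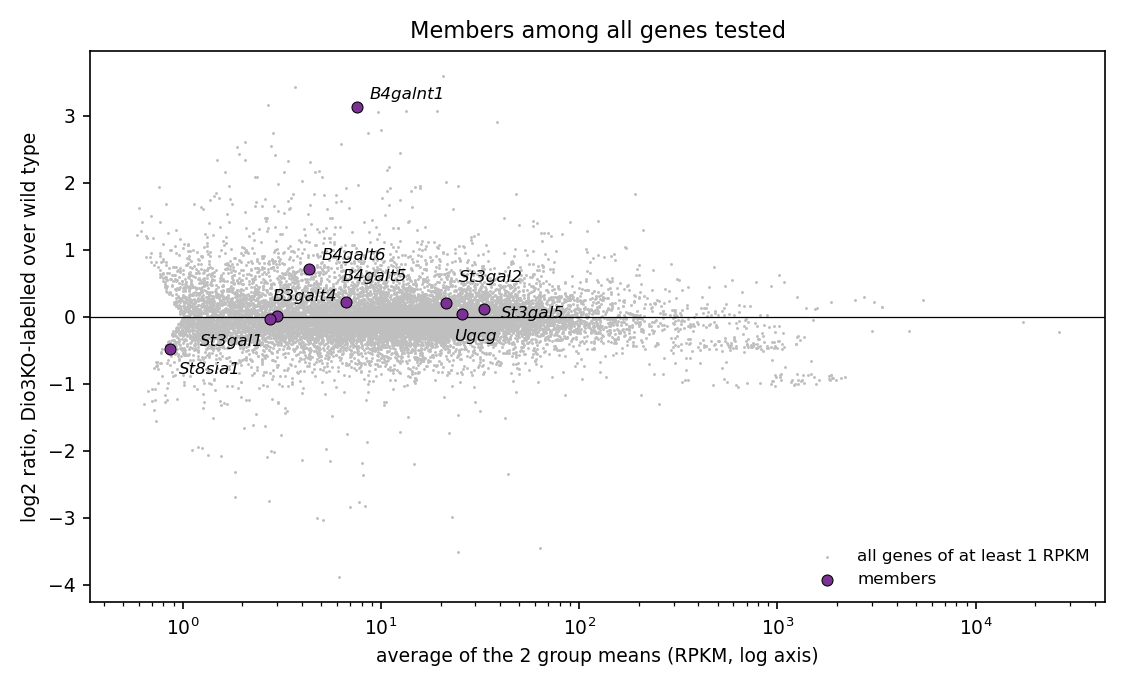
Log2 ratio of the group means against the average of both means (RPKM, log axis) for the 15225 genes of at least 1 RPKM in either group (grey), with the 9 ganglioside enzyme genes among them in purple. B4galnt1 lies at the upper edge of all genes, at 3.13, and St3gal5, Ugcg and St3gal2 lie in the dense band around 0.

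Genes of ceramide supply, among them negative regulators of it, moved in both directions. Of 17 tested members of a list of ceramide synthesis and transfer, 6 rose and 2 fell, beside 14.0% and 15.9% of all genes tested. Their median log2 ratio was 0.08, or 0.18 with equal RPKM sums, beside -0.05 and 0.04 for all genes. Ormdl3, a negative regulator of serine palmitoyltransferase, rose from 83.9 (CV 0.09) to 135 RPKM (CV 0.08) (authors' deposited table, adjusted p = 0.0075). Its paralogs did not share this rise. Ormdl1 fell from 18.2 to 14.8 RPKM, and Ormdl2 (20.4 and 19.7 RPKM) did not pass. Ormdl1 and Ormdl2 were named after their values were seen. The ceramide synthase Cers5 rose from 33.2 to 46.5 RPKM, and Sptssa, a small subunit of serine palmitoyltransferase, rose from 63.8 to 85.4 RPKM. Degs1, the desaturase that completes ceramide (35.9 and 38.9 RPKM), and the palmitoyltransferase subunit Sptlc2 (23.0 and 23.4 RPKM) did not pass.

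Of 9 tested enzymes that lead ceramide or lactosylceramide to other lipids, 4 rose and 1 fell, beside 14.0% and 15.9% of all genes tested. Their median log2 ratio was 0.24. Samd8, a ceramide phosphoethanolamine synthase, rose from 8.86 (CV 0.03) to 14.3 RPKM (CV 0.05) (authors' deposited table, adjusted p = 0.0057). Cerk, which phosphorylates ceramide, rose from 50.9 to 78.2 RPKM. Gbgt1, an enzyme of the globo series, fell from 3.15 to 1.96 RPKM. Sgms2, a sphingomyelin synthase (2.30 and 2.81 RPKM), and A4galt, which starts the globo series (9.37 and 10.3 RPKM), did not pass. Gal3st1, which completes seminolipid, the main glycolipid of maturing germ cells, was at 0.07 and 0.08 RPKM. It and Ugt8a, the enzyme of the step before (1.43 and 1.33 RPKM), were named after their values were seen.

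Sialyltransferases draw on CMP-sialic acid. Of 13 genes for sialic acid and nucleotide sugars, 5 fell and 2 rose, beside 15.9% and 14.0% of all genes tested. Their median log2 ratio was -0.12 beside -0.05 for all genes. With both groups scaled to the same RPKM sum it was -0.02, beside 0.04 for all genes. Gne, the rate-limiting enzyme of sialic acid synthesis, fell from 11.8 (CV 0.10) to 7.36 RPKM (CV 0.08) (authors' deposited table, adjusted p = 0.0139). Renbp, an epimerase known as renin-binding protein, fell from 12.8 to 9.27 RPKM, and Npl, which cleaves sialic acid, fell from 19.7 to 15.5 RPKM. Nans and Nanp, which act between Gne and the activating enzyme, fell as well, Nans from 28.95 to 23.4 RPKM and Nanp from 12.9 to 11.1 RPKM. Cmas, which activates sialic acid with CMP, rose from 34.5 to 44.4 RPKM. Nans, Nanp and Cmas were named after their values were seen. Slc35a1, the Golgi transporter of the activated sugar (22.4 and 22.1 RPKM), and the sugar enzyme Uap1 (16.0 and 14.8 RPKM) did not pass.

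Of 5 further sialyltransferases that act on gangliosides, 3 reached 1 RPKM. St6galnac3 fell from 1.47 (CV 0.06) to 1.13 RPKM (CV 0.07) (authors' deposited table, adjusted p = 0.0104). St6galnac6 (18.97 and 17.9 RPKM) and St6galnac4 (3.71 and 3.86 RPKM) did not pass. St8sia3 (0.08 and 0.07 RPKM) and St6galnac5 (0.04 and 0.06 RPKM), both known from brain, were near 0. The count of rises was 0 with the moderated limma test too, which called 18.6% of all genes higher, and 0 at an unadjusted p below 0.05.

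In the list of ganglioside and sphingolipid breakdown, 7 of 22 tested genes rose and 0 fell, beside 14.0% and 15.9% of all genes tested. The median log2 ratio was 0.16. It was 0.26 with equal RPKM sums, where that of all genes was 0.04, and 0.10 without the filter on low values. By limma 11 were higher and 0 lower, beside 18.6% and 23.2% of all genes, and 1 was lower at an unadjusted p below 0.05. Psap, the precursor of the saposins that present glycolipids to lysosomal hydrolases, rose from 285 (CV 0.03) to 378 RPKM (CV 0.03) (authors' deposited table, adjusted p = 0.0031). Gm2a, the activator protein that presents GM2, a product of B4galnt1, for breakdown in lysosomes, rose from 147 (CV 0.14) to 242 RPKM (CV 0.06). Scarb2, a protein of the lysosomal membrane, rose from 36.5 to 50.7 RPKM. Hexa, which encodes a lysosomal hydrolase subunit (57.0 and 64.2 RPKM), did not pass. Lysosomal genes are also abundant in macrophages, 7 of whose 9 markers rose as given above, and the part of those cells in these rises was not tested.

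**Figure D4:**
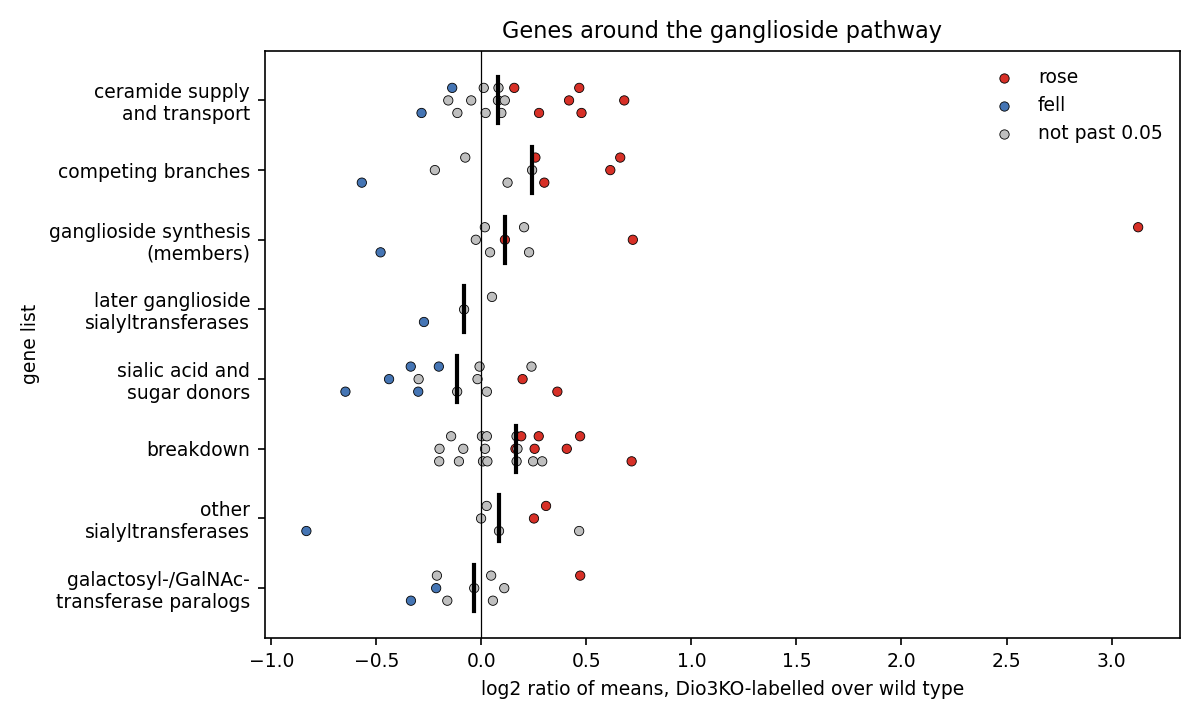
Log2 ratio of the group means for the tested genes of 8 lists around the ganglioside pathway; each point is a gene, red rose, blue fell, grey did not pass 0.05, vertical displacement within a band is only for legibility and black bars are list medians. B4galnt1, at 3.13, is the point at far right, and all other genes of the 8 lists lie between -0.83 and 0.72.

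Among paralogs of the enzymes that act mainly on glycoproteins or proteoglycans, some rose and some fell. Nothing is read from their counts beside the shares of all genes tested, of which 14.0% rose and 15.9% fell. Of 7 tested sialyltransferases outside the ganglioside steps, 2 rose and 1 fell, and their median log2 ratio was 0.08. St8sia2, which makes polysialic acid, fell from 2.60 (CV 0.09) to 1.24 RPKM (CV 0.17) (authors' deposited table, adjusted p = 0.0052). St3gal6 rose from 13.7 to 17.0 RPKM and St3gal4 from 82.5 to 98.2 RPKM. St6gal1 (26.3 and 26.7 RPKM) and St3gal3 (9.13 and 9.12 RPKM) did not pass.

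Of 9 tested paralogs of the galactosyl- and N-acetylgalactosaminyltransferases, 1 rose and 2 fell, beside 14.0% and 15.9% of all genes tested. Their median log2 ratio was -0.03. B4galnt3 rose from 1.03 (CV 0.14) to 1.62 RPKM (CV 0.10) (authors' deposited table, adjusted p = 0.0138). B4galt2 fell from 17.2 to 14.8 RPKM and B3galt6, which acts on the linker of proteoglycans, from 6.01 to 4.66 RPKM. B4galt1 (39.2 and 40.7 RPKM) and B4galt3 (17.7 and 19.2 RPKM) did not pass. Nor did B4galnt2 (9.17 and 7.85 RPKM) or B4galnt4 (1.85 and 1.60 RPKM), named after their values were seen.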

How the data were processed

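RNA sequencing of 8 testis samples was deposited by the authors as a table of group means in RPKM, with the CV of each group (a ratio, SD over mean) and an adjusted p-value per transcript, per the file headers. FastQC, Novoalign 2.08 and mm10 are named without a role in the submitters' processing notes. No counting tool, strandedness or test is given in the sources used here. Depth per sample is unknown, and 0 columns of single samples went unused.

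Repeated lines were dropped (147417 to 49139), and older symbols were led to current ones through RefSeq and a list of gene names. Ratios are log2((RPKM + 0.5)/(RPKM + 0.5)), Dio3KO-labelled over wild type, which understates changes of low genes. The delta method gave SEs from the CVs, with 4 samples in a group. Intervals and the alternative test used limma 3.58.1 (squeezeVar, trend and robust, 6 residual degrees of freedom, smallest CV 0.0025) in R 4.3.3, with Benjamini-Hochberg adjustment over 15225 genes. The limma calls and the ratios were checked on simulated data, in which far fewer genes were changed than limma called here. The intervals and the authors' adjusted p, on which "rose" and "fell" rest, were not checked in this way. The interval of St8sia5, which did not pass the filter, came from the same fit over all 23767 genes. CVs have 2 decimals, which limits small SEs. The series describes the replicates as biological.

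Members and lists were chosen with earlier results of these data known. Beside the members and Dio3, each list names up to 3 genes with the smallest authors' adjusted p below 0.05 and up to 2 of the highest level that did not pass, and the later sialyltransferases are all named; exceptions are stated, and a gene that the rule names in the breakdown list is not reported here. Cert1 stands as Col4a3bp in the table and was added to its list by hand. The alternatives were another pseudocount, no filter, summed transcripts, 2 scalings, limma and a stricter threshold.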

Additional observations from a re-analysis of the deposited data

How the results depend on the processing

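The counts of enzymes that rose and fell (3 and 1) were 4 and 1 with limma and 2 and 0 at an adjusted p below 0.01, where St8sia1 was lost. The median log2 ratio of the enzymes ran from 0.11 to 0.21 under the alternatives. No member that passed changed direction under another pseudocount, scaling or the sum of transcripts. At an adjusted p below 0.01, 4.30% of all genes tested rose and 4.94% fell. The counts that rose became 1 (the negative regulator Ormdl3) in place of 6 for ceramide supply, 2 in place of 4 for competing branches, 0 in place of 2 for sialic acid supply, 3 in place of 7 for breakdown, 0 in place of 2 for other sialyltransferases and 0 in place of 1 for paralogs. The counts that fell became 0 in place of 2 for ceramide supply and paralogs, 0 in place of 1 for competing branches and later sialyltransferases, and 1 (Renbp) in place of 5 for sialic acid supply. That last list is not of synthesis alone, since it also holds Npl, which cleaves sialic acid. Limma called 11 in place of 7 breakdown genes higher and 1 in place of 2 ceramide supply genes lower. Without a filter on low values, 2 in place of 1 of the other sialyltransferases fell, and the median of competing branches was 0.12 in place of 0.24. With equal RPKM sums the medians of ceramide supply, sialic acid supply and breakdown were 0.18, -0.02 and 0.26 in place of 0.08, -0.12 and 0.16, and the ratios of Ugcg and St3gal2 0.14 and 0.30 in place of 0.04 and 0.20. The median of later sialyltransferases, -0.08, turned to 0.06 with summed transcripts and 0.01 with equal RPKM sums. That of paralogs went from -0.03 to 0.06 with equal sums and to 0.01 when centred or unfiltered. The median of all genes tested moved as well, from -0.05 to 0.04 with equal sums and to 0 when centred. No paired analysis was possible because the table holds group means, and for the same reason no replicate could be left out.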

Other observations

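The genes next to B4galnt1 and St8sia1 did not all share their direction, and a cause in the region was not tested. On chromosome 10, Os9, a lectin of endoplasmic reticulum quality control that lies 44.1 kb upstream of B4galnt1, rose from 19.2 RPKM (CV 0.01) to 26.5 RPKM (CV 0.05). Arhgef25, 10.2 kb beyond B4galnt1, fell from 24.8 to 21.96 RPKM, and Agap2 (2.85 and 2.44 RPKM) did not pass. On chromosome 6, Cmas lies 45.8 kb from St8sia1. Cmas, which activates sialic acid, rose, whereas St8sia1, which uses it, fell. Between them, Sult6b2 stood at 0.09 and 0.05 RPKM, without passing. Beyond the other end of St8sia1, C2cd5 (5.66 and 5.04 RPKM) did not pass and Etnk1, an ethanolamine kinase, rose from 16.99 to 24.7 RPKM. Next to B4galt6, which rose, Dsg2 fell from 1.37 to 0.29 RPKM, and Ttr, Trappc8 and Rnf125 did not pass. All these neighbours were taken by position, being the nearest 2 protein-coding genes on each side in GENCODE M21, and were not chosen by value. Neighbours of the other members are not described.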
